A study of Mus musculus with 186 samples.

Results

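Foxo1, Foxo3 and Foxo4 encode FOXO transcription factors, and Bcl6, Ccng2, Cdkn1b, Sesn1, Sesn3 and Pik3ip1 are genes that FOXO factors are known to activate in other cells. These 9 genes were taken by name from the 55421 gene rows of the table, as the set that an inhibitor of phosphoinositide 3-kinase (PI3K) would be expected to touch. RNA had been sequenced from single inner cells of CD-1 mouse embryos, freed from the outer layer by immunosurgery. Fresh embryos were collected at embryonic day E3.25, E3.75 or E4.0, with noon of the plug day counted as E0.5. Other embryos were taken as morulae at E2.75 and cultured in KSOM medium for 16 or 24 hours with 10 µM LY294002 (LY), which inhibits PI3K, or with its vehicle DMSO. The 16h and 24h groups therefore share the culture, and the fresh groups saw neither KSOM nor DMSO. No genotype or transgene is named in the labels.

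When PI3K is active, the kinase AKT phosphorylates FOXO proteins, 14-3-3 proteins bind them, and they are held in the cytoplasm. When PI3K is blocked, FOXO proteins return to the nucleus and raise transcription of genes that slow the cell cycle, dampen growth signalling or protect from stress. Most of this control acts on the FOXO protein, which mRNA does not report, so the mRNA of the targets is the usual transcriptional readout. The inner cell mass gives rise to the epiblast, which forms the fetus, and to the primitive endoderm, which contributes to the yolk sac.

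Values were read from 169 cells in 18 experiments, an experiment being the cells of 1 group that carry the same date label. The fresh stages contributed 19, 22 and 14 cells in order of age, with 2 experiments a stage. The 16h groups held 31 cells with DMSO and 31 with LY, and the 24h groups 28 and 24, each from 3 experiments whose dates are shared by both arms. By the series' text an experiment took in several litters, but the labels do not say that the cells of 1 date came from 1 pool of embryos, so the spread between experiments is a spread between dates. The unit is TPM, a share of all transcripts after scaling for length; read numbers cannot be recovered from it, and depth is unknown. A cell had 3806 to 10220 genes at a TPM of at least 1, with a median of 6584. Averaged over experiments, that number was 8084 ± 1655 (SD, n = 3) in 16h DMSO against 6832 ± 1306 in 16h LY, and 6454 ± 648 in 24h DMSO against 5439 ± 918 in 24h LY. Markers of the inner cell mass were present in every group: 9 to 12 of 12 epiblast genes and 15 to 18 of 18 primitive endoderm genes reached a TPM of 1 in some cell. Trophectoderm genes, which mark the outer layer, were also present (12 to 14 of 15), with a summed TPM of 248 to 1227 over the 16h DMSO experiments and 278 to 346 over those of 16h LY. At 24 hours these sums were 272 to 395 with DMSO and 236 to 365 with LY. At E4.0 they were 122 to 514, at E3.75 130.1 to 186 and at E3.25 369 to 393. Of the trophectoderm genes, Elf5 was below a TPM of 1 in all cells of 6 of the 7 groups and Cdx2 in all cells at E3.75. Their part in the results below was not tested. One collection is named before any comparison: the third 16h LY experiment, with 6 cells, had no cell with a TPM of 1 or more for Foxo1, Foxo4, Bcl6, Ccng2, Cdkn1b, Sesn3 or Pik3ip1. Of these genes only Foxo1 had a detecting cell in every other experiment, and Foxo4, Bcl6, Ccng2 and Pik3ip1 were rarely detected in any group. The first 16h DMSO experiment held only 3 cells, with a mean of 9995 genes detected.

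FOXO factors bind short DNA elements, of which GTAAACA (the DAF-16 family element) and CAAAACA (the insulin response element) were searched on both strands in RefSeq promoter windows of build GRCm38.p6, each running from 250 bases before a transcription start to 50 after it. Of the 9 genes 8 had a window, 10 windows in all, and Foxo4 had none. GTAAACA or its reverse complement TGTTTAC lay in 1 of these 10 windows, that of Sesn1, and in 3.65% of all 32851 windows. CAAAACA or TGTTTTG lay in 1 of the 10, that of Ccng2, and in 6.28% of all windows. Neither site matches the other motif, and a match describes letters, not binding. Both are shown because they are the 2 places in these windows where either exact string occurs. Variants of the 2 elements were not searched. Capitals mark the element.
Sesn1, chr10:41810585-41810614, plus strand, element starting at base 23 after the start: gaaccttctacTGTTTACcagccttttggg
Ccng2, chr5:93267546-93267575, plus strand, element starting 16 bases before the start: cgtcgcagactCAAAACAaaaacaaggggt
Sesn1 is described below among the genes found in many cells, while Ccng2 was found in 4 cells.

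Detection sorted the 9 genes into 3 tiers. Foxo3 had a TPM of 1 or more in 141 of 169 cells (83.4%), with a median TPM of 5.33 over all cells and a highest value of 346. Foxo1 followed in 69 cells (40.8%), Sesn1 in 64 (37.9%) and Cdkn1b in 47 (27.8%), each with a median TPM in the detecting cells between 3.53 and 4.75. Sesn3 was detected in 25 cells (14.8%), Pik3ip1 in 14 (8.28%), Foxo4 in 10 (5.92%), Ccng2 in 4 (2.37%) and Bcl6 in 2 (1.18%). A cell had a median of 2 of the 9 genes detected in each of the 7 groups, and 7 cells had none. Values of TPM are scaled by transcript length, but these libraries start at the 3′ end of transcripts, so the order of genes depends on that too. A gene was tested when 25% or more of the cells in any 1 group detected it, which 11680 genes met. Foxo1, Foxo3, Cdkn1b, Sesn1 and Sesn3 passed, the last only through 24h LY, where exactly 25% of cells detected it. Foxo4, Bcl6, Ccng2 and Pik3ip1 did not pass and are described without the filter. All 9 are protein-coding genes, and their positions below are those of the GENCODE vM21 annotation of build GRCm38, the mouse genome also called mm10.

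**Figure D1:**
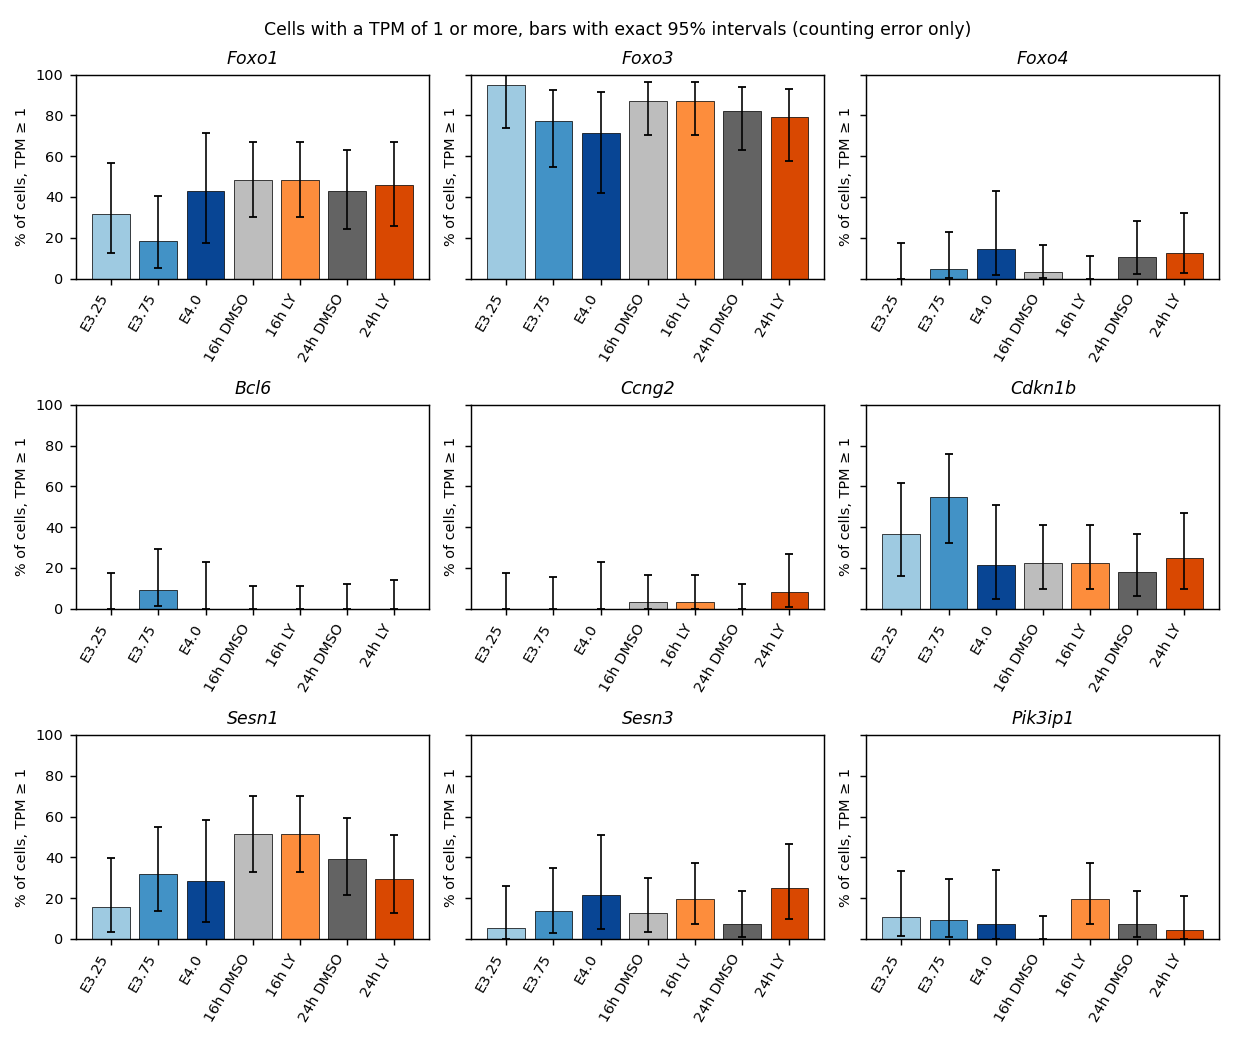
Percentage of cells with a TPM of 1 or more (vertical axis, %) for each of the 9 genes in the 7 groups, with exact Clopper-Pearson 95% intervals that cover counting error only. Foxo3 lies between 71.4% and 94.7% in every group, while Bcl6 and Ccng2 stay at or under 9.09%.

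Foxo3 (chromosome 10, 42181841 to 42276755), the most widely detected of the 3 factors, was found in all 7 groups and in all 18 experiments. The experiments at E3.25 had a mean log2(TPM + 1) of 3.31 and 4.22, followed by 2.96 and 2.77 at E3.75, and 1.53 and 4.76 at E4.0. The 16h experiments gave 3.06, 3.10 and 1.70 with DMSO against 3.98, 3.40 and 1.44 with LY, and the 24h experiments 2.68, 2.30 and 3.22 against 3.81, 2.71 and 2.74. The E4.0 experiments held the highest and the second lowest of these means, so E4.0 spanned nearly the whole range and overlapped every other group. In the low E4.0 experiment 5 of 9 cells detected Foxo3, and in the high one 5 of 5 did. By group mean the order ran from E3.25 (3.76 ± 0.64, SD, n = 2) through E4.0 (3.15 ± 2.28), 24h LY (3.09 ± 0.62, n = 3), 16h LY (2.94 ± 1.33), E3.75 (2.87 ± 0.14) and 24h DMSO (2.74 ± 0.46) to 16h DMSO (2.62 ± 0.80). No neighbours in that order differed by more than their spread.

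Foxo1 (chromosome 3, 52268336 to 52353221), the factor best known for insulin responses in liver, was lower and patchier. Its mean log2(TPM + 1) was 0.59 and 1.16 at E3.25, 0.47 and 0.63 at E3.75, and 0.87 and 1.80 at E4.0. The cultured values were 1.01, 1.29 and 0.84 in 16h DMSO, 1.48, 1.25 and 0.03 in 16h LY, 1.03, 1.10 and 1.32 in 24h DMSO, and 1.41, 1.89 and 1.14 in 24h LY. Both E3.75 experiments lay below all 6 DMSO experiments and both E4.0 experiments, as was so for 3.78% of the tested genes. That grouping follows the values of Foxo1, so the share does not measure how unusual the gene is. It leaves out E3.25, whose first experiment (0.59) lay between the 2 of E3.75. The single lowest value was the third 16h LY experiment, where 0 of 6 cells detected the gene. Group means ran from 1.48 ± 0.38 (SD, n = 3) in 24h LY through E4.0 (1.34 ± 0.66, n = 2), 24h DMSO (1.15 ± 0.15), 16h DMSO (1.05 ± 0.23), 16h LY (0.92 ± 0.78) and E3.25 (0.88 ± 0.40) to E3.75 (0.55 ± 0.12), and no neighbours were separated by more than their spread. The exons of Foxo1 overlap the antisense gene Gm20402, and whether reads were counted by strand is not stated. Reads of the 2 genes therefore cannot be told apart where their exons overlap.

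Foxo4 (chromosome X, 101254528 to 101260873), a relative of both, was close to the detection limit everywhere. Its mean log2(TPM + 1) lay between 0 and 0.34 in 17 of 18 experiments and reached 0.70 in the first 24h DMSO experiment. No cell of E3.25 or of 16h LY had a TPM of 1 or more, and a count of 0 allows a share of up to 15.8% of 19 cells and 9.68% of 31 cells. The highest TPM of any cell was 7.73, in 24h DMSO.

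**Figure D2:**
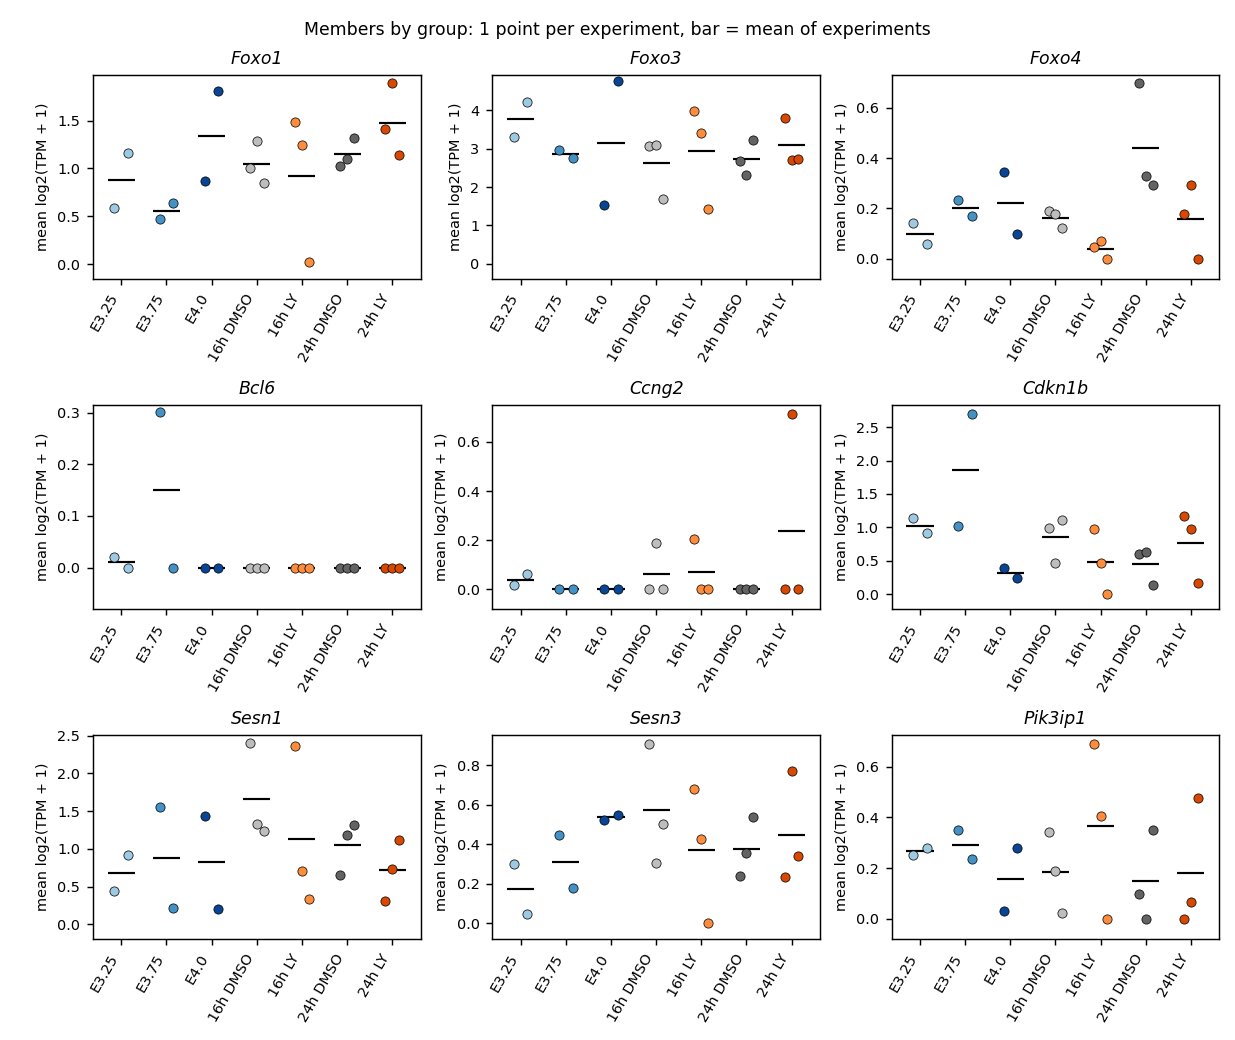
Mean log2(TPM + 1) per experiment (points) for each gene and group, with a bar at the mean of the experiments; the vertical scale differs between panels. The experiments of a group are spread as widely as the groups are apart for Foxo3, Foxo1 and Sesn1, and 1 E3.75 experiment of Cdkn1b, at 2.699, lies apart from the other 17.

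Among the targets, Cdkn1b (chromosome 6, 134920401 to 134925513) encodes p27, an inhibitor of cyclin-dependent kinases that holds cells before S phase. Its mean log2(TPM + 1) was 1.14 and 0.91 at E3.25, 1.02 and 2.699 at E3.75, and 0.39 and 0.24 at E4.0. The 16h experiments gave 1.00, 0.46 and 1.11 with DMSO against 0.97, 0.46 and 0.01 with LY, and the 24h experiments 0.60, 0.63 and 0.13 against 1.17, 0.98 and 0.17. The second E3.75 experiment was the highest of all 18, and both E4.0 experiments lay below both experiments of each earlier stage, as was so for 4.26% of the tested genes. The share of detecting cells was 36.8% at E3.25, 54.5% at E3.75 (95% interval 32.2% to 75.6%), 21.4% at E4.0 (4.66% to 50.8%), 22.6% in both 16h groups, 17.9% in 24h DMSO and 25% in 24h LY. The highest TPM, 109.6, came from 1 cell of the second E3.75 experiment.

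Sesn1 (chromosome 10, 41809935 to 41908424) and Sesn3 (chromosome 9, 14275067 to 14333101) encode sestrins, which restrain mTORC1 and answer to oxidative and nutrient stress. Sesn1 had a mean log2(TPM + 1) of 0.45 and 0.92 at E3.25, 1.56 and 0.22 at E3.75, and 1.44 and 0.21 at E4.0. In culture it was 2.40, 1.33 and 1.23 in 16h DMSO, 2.36, 0.71 and 0.34 in 16h LY, 0.66, 1.19 and 1.32 in 24h DMSO, and 0.31, 0.73 and 1.11 in 24h LY. The 2 highest values came from the first date at 16 hours, 1 in each arm, and every pair of groups overlapped except 16h DMSO, which lay above E3.25, as did 23.2% of all tested genes, and above 24h LY, as did 22% of them. Sesn3 stayed between 0 and 0.91, with its highest value in that same first 16h DMSO experiment and 0 in the third 16h LY experiment. Across the 18 experiments both sestrins moved with the number of genes detected (Pearson r of 0.72 for Sesn1 and 0.74 for Sesn3), which was at most 0.17 in size for Foxo1, Foxo3 and Cdkn1b; these points share libraries, and the part of library quality in the sestrin values was not tested beyond the covariate fit given below.

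The other targets were rarely seen. Pik3ip1 (chromosome 11, 3330401 to 3342971) encodes a transmembrane protein that inhibits PI3K itself, and 14 cells detected it, with 6 of them among the 31 cells of 16h LY and 0 among the 31 of 16h DMSO. The 6 cells were 4 of 11 and 2 of 14 in the first and second experiments and 0 of 6 in the third. A count of 0 allows a share of up to 9.68%, the 16h LY share was 19.4% (exact 95% interval 7.45% to 37.5%), and 8 of the DMSO cells had a TPM above 0 but no higher than 0.91. Cells of 1 experiment are not replicates, and the share of all genes with such a split of cells was not counted. On the means over cells the arms overlapped: 0.34, 0.19 and 0.02 with DMSO against 0.69, 0.41 and 0 with LY. The unfiltered limma difference was 0.18 (95% interval -0.23 to 0.59, p = 0.354), with an adjusted p of 0.945. At 24 hours the counts were 2 of 28 cells with DMSO and 1 of 24 with LY. The exons of Pik3ip1 overlap the antisense gene Gm12592, with the same limit as for Foxo1. Ccng2 (chromosome 5, 93267257 to 93276231), an unconventional cyclin linked to cell cycle arrest, had a TPM of 1 or more in 4 cells, and its 2 highest values, 25.5 and 13.5, were both in the second 24h LY experiment. Bcl6 (chromosome 16, 23965052 to 23988852), a transcriptional repressor best known from germinal centre B cells, had a TPM of 1 or more in 2 cells of the first E3.75 experiment and was listed at 0 in every cell of the cultured groups and of E4.0. Its exons overlap the antisense gene Gm37419.

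**Figure D3:**
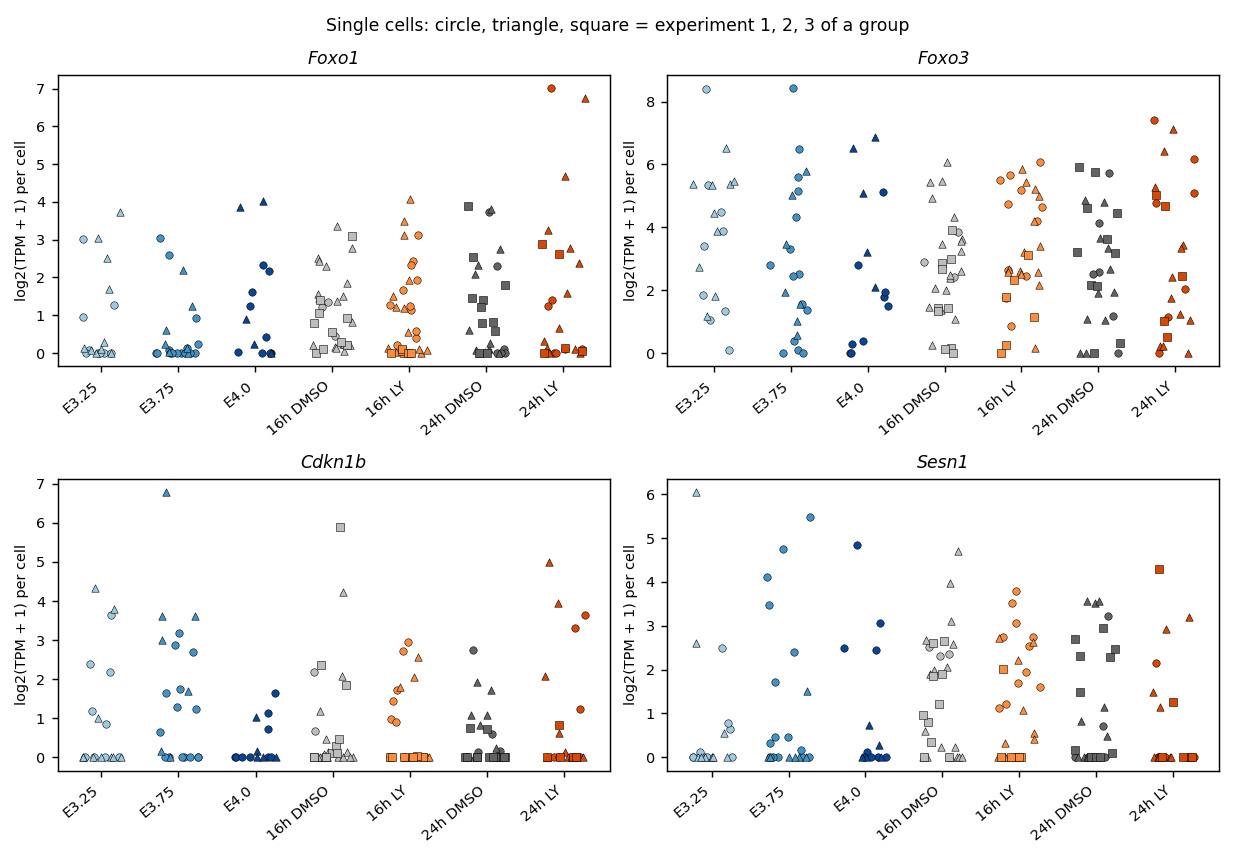
Log2(TPM + 1) of single cells (points, vertical axis) for Foxo1, Foxo3, Cdkn1b and Sesn1 in the 7 groups, with the mark showing the experiment of the group. For Foxo1 and Cdkn1b most cells lie at or near 0 and a few carry most of the signal, and the 2 highest Foxo1 cells (TPM 129 and 108) are both in 24h LY.

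No change of the FOXO factors or their targets was detected after 16 hours of PI3K inhibition. Of the 5 tested genes 0 passed an adjusted p of 0.05 (limma on the experiment means, Benjamini-Hochberg over 11680 genes), and 0% of all genes did. At an unadjusted p under 0.05 the counts were 0 of these 5 and 5.49% of all genes. Differences are LY minus DMSO in mean log2(TPM + 1), a scale that compresses changes at low levels. The factors stood at 0.32 (95% interval -1.31 to 1.95, SE 0.78) for Foxo3 and -0.13 (-1.02 to 0.77, SE 0.43) for Foxo1, with adjusted p-values of 0.953 and 0.965 from limma. The targets stood at -0.52 (-1.62 to 0.58) for Sesn1, -0.38 (-1.22 to 0.47) for Cdkn1b and -0.20 (-0.71 to 0.30) for Sesn3, with limma adjusted p-values between 0.882 and 0.893. The upper ends of these intervals depended on single experiments. Without the third LY experiment they were 2.77 for Foxo3, 1.26 for Foxo1, 1.09 for Sesn1, 0.81 for Cdkn1b and 0.53 for Sesn3. Without the first DMSO experiment they were also higher, at 2.36 for Foxo3 and 1.01 for Sesn1. Without the first LY experiment they were lower, at 1.58 for Foxo3 and -0.07 for Sesn1 (limma adjusted p = 0.492 for Sesn1). With the number of genes detected as a covariate that of Sesn1 was 1.05. Pooled over dates, the number of detecting cells was the same in both arms for Foxo1, Foxo3, Cdkn1b and Sesn1, at 15, 27, 7 and 16 of 31 cells, but the arms drew unequal numbers of cells from each date. By date, the share with LY minus that with DMSO was -9.09, -1.59 and -3.33 percentage points for Foxo3, 0, -15.9 and -33.3 for Sesn1, 6.06, -5.56 and -30 for Foxo1, and 3.03, 4.76 and -30 for Cdkn1b. At a TPM of 5 or more the counts with DMSO and LY were 3 and 4 cells for Foxo1, 16 and 19 for Foxo3, 2 and 2 for Cdkn1b, and 6 and 7 for Sesn1. Among detecting cells the mean log2(TPM + 1) of Foxo3 was 3.02 with DMSO and 3.66 with LY, and that of Cdkn1b was 2.83 and 2.18.

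The sign at 16 hours needs the level of all genes beside it. The median difference over the 11680 genes was -0.33, most genes having lower means in the LY libraries, and the median of the 5 was -0.20. Relative to the median of all genes, Foxo3 stood at 0.65, Foxo1 at 0.21, Sesn3 at 0.13, Cdkn1b at -0.04 and Sesn1 at -0.19. With the number of genes detected as a covariate, the values of Foxo1, Sesn1 and Sesn3 turned to 0.11, 0.09 and 0.07. Without the third LY experiment, Foxo1 stood at 0.32, Foxo3 at 1.07, Cdkn1b at -0.14, Sesn1 at -0.12 and Sesn3 at -0.02, each with a limma adjusted p of 1. Within sequencing run 1 and run 2, the differences were 0.29 and 0.48 for Foxo3, -0.27 and -0.16 for Foxo1, -0.35 and -0.17 for Cdkn1b, -0.50 and -0.55 for Sesn1, and -0.06 and -0.43 for Sesn3.

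At 24 hours of LY the result was the same in kind, with 0% of all genes past the threshold and 5.27% at an unadjusted p under 0.05. Sesn3 entered the test only through its share in 24h LY, so it is given as a description here, and of the other 4 genes 0 passed either limit. The differences were 0.35 (95% interval -1.27 to 1.98) for Foxo3, 0.33 (-0.56 to 1.22) for Foxo1, 0.32 (-0.53 to 1.16) for Cdkn1b, 0.07 (-0.43 to 0.58) for Sesn3 and -0.34 (-1.44 to 0.76) for Sesn1. For the 4 genes limma adjusted p-values lay between 0.954 and 0.979. Their median was 0.32 and that of all genes -0.20. Relative to the median of all genes, Foxo3 stood at 0.56, Foxo1 at 0.53, Cdkn1b at 0.52 and Sesn1 at -0.13. With the log2 of the mean TPM the Foxo1 difference was 1.45 (95% interval -0.07 to 2.96, limma adjusted p = 0.722). In that fit the upper ends were 2.66 for Foxo3, 2.43 for Cdkn1b and 1.46 for Sesn1. Detecting cells were 12 of 28 with DMSO and 11 of 24 with LY for Foxo1, 23 and 19 for Foxo3, 5 and 6 for Cdkn1b, 11 and 7 for Sesn1, and 2 and 6 for Sesn3. At a TPM of 5 or more the order of Sesn3 turned, with 2 cells against 1, and the other counts were 4 and 7 for Foxo1, 14 and 11 for Foxo3, 1 and 4 for Cdkn1b, and 6 and 3 for Sesn1.

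Single cells and runs weigh on the 24-hour values. The 3 highest Foxo1 cells of the whole data set, at TPM 129, 108 and 24.7, were all 24h LY cells of run 2, while the highest elsewhere was 16.0. The first 2 of them had 4241 and 4233 genes detected, near the low end of the range. Within run 1 the Foxo1 difference was -0.89 and within run 2 it was 1.10. For Foxo3 the runs gave 1.504 and -0.58, for Cdkn1b 1.07 and 0.04, for Sesn1 -0.40 and -0.31, and for Sesn3 -0.0033 and -0.19. Foxo1, Foxo3 and Sesn3 thus did not keep 1 sign across pooled and within-run values.

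**Figure D4:**
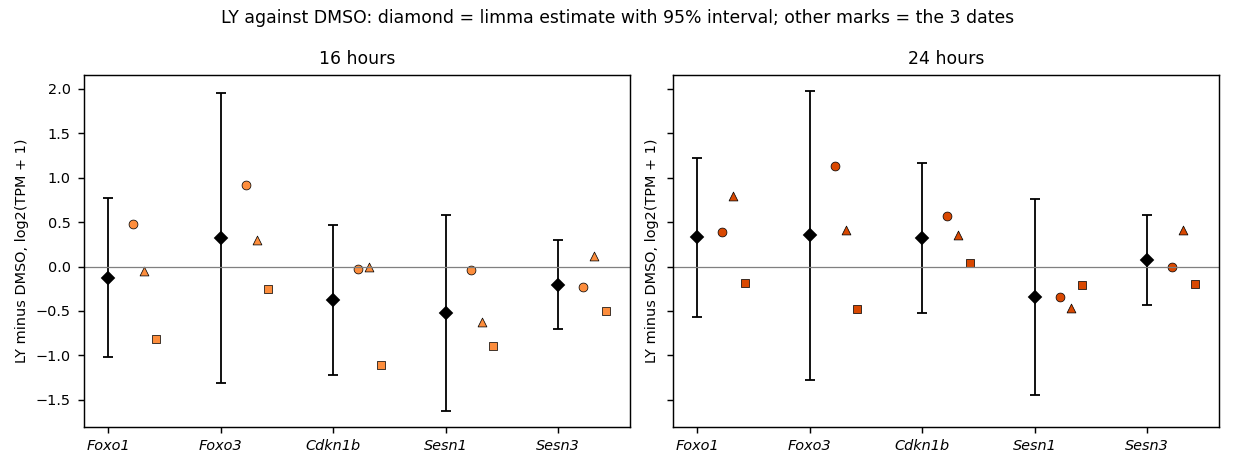
LY minus DMSO on the log2(TPM + 1) scale (vertical axis) for the 5 tested genes at 16 and 24 hours. Diamonds are limma estimates with 95% intervals and the other marks are the 3 dates. Sesn3 entered the test through 24h LY; all 10 intervals include 0, and the Sesn1 marks lie below 0 on all 6 dates.

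Because both arms share their dates, each date gives its own difference. Sesn1 was lower with LY on all 6 dates, with differences from -0.90 to -0.04, as were 8.71% of the tested genes. With the number of genes detected as a covariate its differences were 0.09 at 16 hours and 0.15 at 24 hours. Foxo4 was also lower on all 6 dates, as were 3.45% of the 33056 genes with any TPM above 0, and its means were 0.19, 0.18 and 0.12 with DMSO against 0.05, 0.07 and 0 with LY at 16 hours. At 24 hours they were 0.70, 0.33 and 0.29 against 0.18, 0.29 and 0. The 16-hour arms of Foxo4 did not overlap, LY lying below DMSO as for 4.53% of the 33056 genes, but all these means lie under 1, the value of a cell with a TPM of 1, and the unfiltered limma differences were -0.12 (p = 0.331) and -0.28 (p = 0.0367), with adjusted p-values of 0.930 and 1. In the unfiltered limma fit 1038 of the 33056 genes had an unadjusted p under 0.05 at 24 hours. Cdkn1b was lower with LY on all 3 dates at 16 hours, at -0.02, -0.0011 and -1.10, and higher on all 3 at 24 hours, at 0.57, 0.35 and 0.03. Over all tested genes 35.7% were lower on all 3 dates at 16 hours and 22.4% at 24 hours, and 5.34% and 6.33% were higher on all 3. The share that turned from lower to higher, like Cdkn1b, was not counted. None of the 5 was higher on all 6 dates, as 0.685% of the tested genes were. No arms of the 5 tested genes were free of overlap at either time, against 10.2% of genes at 16 hours and 10.9% at 24 hours. For Sesn3 the 24-hour overlap is a description, because it entered the test through 24h LY.

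The change of the LY effect from 16 to 24 hours was tested directly as an interaction. The estimates were 0.69 for Cdkn1b (95% interval -0.50 to 1.89, p = 0.240), 0.46 for Foxo1, 0.28 for Sesn3, 0.18 for Sesn1 and 0.03 for Foxo3. Apart from Sesn3, given as a description, each had a limma adjusted p of 1, and 0% of all genes passed. Leaving Sesn3 aside as above, 0 of 4 against 2.49% of all genes had an unadjusted p under 0.05. All 16-hour experiments carry later dates than all others, so culture time and calendar period cannot be told apart. Fits with the date as a replicate block gave the same LY differences. For the 4 genes other than Sesn3 the limma adjusted p-values of these fits ran from 0.549 to 0.909 over both times.

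Across the fresh stages 0 of the 5 tested genes passed in any of the 3 comparisons, and Cdkn1b had the lowest p. From E3.75 to E4.0 Cdkn1b differed by -1.54 ± 0.50 (SE; 95% interval -2.58 to -0.51; p = 0.00534), with a limma adjusted p of 0.193, while 1.41% of all genes passed and 9.49% had an unadjusted p under 0.05. The difference rests on the second E3.75 experiment: without it the value was -0.71 (limma adjusted p = 0.882), and without the first it was -2.38, which passed (limma adjusted p = 0.0494) with E3.75 left as 1 experiment assumed to vary like the other groups. Within run 1 it was -1.99 and within run 2 -0.79. From E3.25 to E3.75 Cdkn1b differed by 0.83 (95% interval -0.20 to 1.87), a value that was -0.0075 without the second E3.75 experiment and 1.67 without the first. From E3.25 to E4.0 it differed by -0.71 (-1.75 to 0.32). The other tested genes had limma adjusted p-values of 1 from E3.25 to E3.75, where 0% of genes passed and 4.59% had an unadjusted p under 0.05, 0.740 to 0.992 from E3.75 to E4.0, and 0.669 to 0.962 from E3.25 to E4.0, where 1.67% of genes passed and 12.9% had an unadjusted p under 0.05. Foxo1 stood 0.78 higher at E4.0 than at E3.75 (-0.31 to 1.88) and Foxo3 0.28 higher (-1.71 to 2.27). Bcl6 was seen at a TPM of 1 or more only in 2 cells of the first E3.75 experiment, and its unfiltered limma adjusted p from E3.75 to E4.0 was 0.479.

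Cultured DMSO embryos were set against fresh ones of near age. All 16h DMSO experiments carry later dates than both E3.25 experiments, so culture and calendar period cannot be told apart in that comparison. At 24 hours Cdkn1b stood at -1.40 ± 0.45 (SE) against E3.75 (p = 0.00553, limma adjusted p = 1), where 0% of all genes passed and 3.17% had an unadjusted p under 0.05. This comparison uses the same E3.75 experiments as the stage comparison, and without the second of them the value was -0.56 and without the first -2.24. At 16 hours against E3.25, 0 of the 5 genes and 0.0514% of all genes passed, and 0 of the 5 and 13.7% of all genes had an unadjusted p under 0.05. Foxo3 stood at -1.14 (95% interval -2.96 to 0.67) and Sesn1 at 0.97 (-0.26 to 2.204), with limma adjusted p-values of 0.562 and 0.462, against a median of 0.32 over all genes. With the number of genes detected as a covariate the Sesn1 value was 0.07. Foxo1 stood at 0.17 (-0.83 to 1.17) at 16 hours and 0.60 (-0.40 to 1.60) at 24 hours.

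Among the 5 tested genes, Pearson r over the 18 experiments was 0.63 between Sesn1 and Sesn3, 0.59 between Foxo1 and Foxo3 and 0.49 between Foxo1 and Sesn3, while Foxo3 correlated at 0.07 with Cdkn1b and -0.06 with Sesn1. Over the 169 cells every pair of tested genes lay between -0.13 and 0.10, and in counts this sparse that is no finding. Of the 69 cells with Foxo1, 64 also had Foxo3, which 141 of 169 cells had. These points share libraries and detection, and the values are descriptive. The genes whose experiment means were most like each one, by Pearson r over 18 experiments, were Esrra (0.81) and the antisense RNA Gm29434 (0.80) for Foxo3, and Mrpl55 (0.78) and Cnppd1 (0.77) for Foxo1. For the targets they were Plekhg2 and Rbm34 (both 0.78) for Cdkn1b, Anxa4 (0.93) and the pseudogene Gm3333 (0.91) for Sesn1, and Tspan31 (0.91) and 1110004F10Rik (0.86) for Sesn3. These are the highest values over all tested genes, and no baseline for such a maximum was computed. Both sestrins also moved with the number of genes detected, as given above. Shared regulation was not tested.

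Wider lists of the pathway gave the same count under LY. Of 41 further FOXO targets 24 were tested, and 0 passed at either time. At 16 hours 10 of the 24 had positive and 14 negative differences (median -0.03), and at 24 hours 12 and 12 (median -0.04). Of 33 genes that control FOXO (the AKT and SGK kinases, PI3K subunits, 14-3-3 proteins, acetylases and deacetylases) 32 were tested and 0 passed, with medians of -0.44 and -0.09. Of 8 genes that FOXO is known to lower, such as cyclin D1 and Myc, 6 were tested and 0 passed, with medians of -0.41 and -0.21. Of 6 close relatives of the 9 genes, 3 were tested and 0 passed, with medians of 0.58 and 0.53. At each time 2 of these 3 had positive differences and 1 a negative one. The medians of all genes were -0.33 and -0.20.

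Between fresh stages 3 genes of these lists did pass. Of the 65 genes tested over the 4 lists, 2 (3.08%) passed from E3.75 to E4.0, against 1.41% of all genes, and 2 (3.08%) from E3.25 to E4.0, against 1.67%. Cited2, a FOXO target that encodes a coactivator competing for CBP and p300, had means of 0.71 and 0.62 at E3.25, 0.52 and 0.32 at E3.75, and 1.88 and 1.69 at E4.0. It rose by 1.37 from E3.75 to E4.0 (limma adjusted p = 0.00582) and by 1.12 from E3.25 (0.0253). Without the second E3.75 experiment the first of these had an adjusted p of 0.0881, and the second lost its call without either E3.25 experiment (0.084 and 0.188) or without the first E4.0 experiment (0.051). The first call was also lost with the log2 of the mean TPM (0.328) and within run 1 (0.534) or run 2 (0.183). The second was lost with a pseudocount of 0.1 (0.0601), quantile normalization (0.0717), the log2 of the mean TPM (0.567) and within run 1 (0.305) or run 2 (0.285). Cited2 was listed at 0 in all 3 experiments of 24h LY and in 2 of 16h LY, and lay between 0 and 0.48 in the 6 DMSO experiments, with limma adjusted p-values of 0.867 and 0.935 for LY against DMSO at 16 and 24 hours. Stk4, the MST1 kinase that phosphorylates FOXO under stress, rose by 2.68 from E3.75 to E4.0 (limma adjusted p = 0.0193), from 0.56 and 0.25 to 2.95 and 3.21. That call was lost without the first or the second E3.75 experiment (0.106 and 0.196) or the second E4.0 experiment (0.108), with the log2 of the mean TPM (0.393) and within run 1 (0.593). Sfn, the 14-3-3 sigma protein, fell by 3.51 from E3.25 to E4.0 (limma adjusted p = 0.0138), from 6.07 and 7.27 to 2.37 and 3.96. It lost its call without the second E3.25 experiment (0.231) or the first E4.0 experiment (0.135), with the log2 of the mean TPM (0.0849) and within run 1 (0.487). From E3.25 to E4.0 the trophectoderm genes Krt8, Krt18 and Tfap2c stood at -2.72, -3.00 and -2.92 (limma adjusted p = 0.195, 0.273 and 0.0809). Lgals3 and Fabp3 of the same list stood at 2.355 and 2.287 (limma adjusted p = 0.282 and 0.388). Of the 12 tested trophectoderm genes 4 were above 0 and 8 below (median -0.04), and 0 passed. In the same comparison 8 of 18 primitive endoderm genes and 2 of 12 epiblast genes passed as higher, and from E3.75 to E4.0 7 of 18 and 2 of 12. The part of cell makeup in the values of Cited2, Stk4 and Sfn was not tested.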

How the data were processed

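The authors deposited 1 table of TPM values with 170 columns, each tied to 1 of 186 labelled samples by title; the other 16 samples were not analysed here. RSEM 1.3.3, STAR 2.7.9a, cutadapt 2.9, bcl2fastq 2.20.0 and genome build mm10 are named, per the submitters' processing notes, without settings or annotation. Per the labels' protocols, mRNA was copied from its 3′ end and libraries were made with Nextera XT, so short or poorly copied transcripts can drop out. Of 55513 lines, 92 spike-ins were left out. A pair of E3.25 columns with the same title stem (r = 0.824 against 0.783 at most with other cells) was averaged; a pair in 24h LY (0.594 against 0.724) was kept apart. All cells were kept, and doublets were not called because each sample is 1 picked cell.

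The replicate was the experiment, its value the mean over cells of log2(TPM + 1). limma 3.58.1 in R 4.3.3 (eBayes with trend, two-sided) was fitted to all 18 means of the 7 groups, with no block, p-values adjusted by Benjamini-Hochberg within each comparison and called at 0.05; adjusted p-values of genes in the text are from it. The script was run on simulated data as a check of its code, and no power for the LY comparisons is drawn from that run. Shares have exact Clopper-Pearson 95% intervals; these and the limit for a count of 0 (3 counts) cover counting error only. The date labels tie the LY and DMSO arms; across genes, the deviations of the LY and DMSO experiment of 1 date correlated at 0.393, 0.121 and 0.317 at 16 hours and 0.231, 0.12 and 0.0732 at 24 hours. Alternatives were another pseudocount (0.1), no filter, the log of the mean TPM, quantile normalization, TPM without mitochondrial genes, genes detected as a covariate, weights by cells, each run alone, each experiment left out, the date as a replicate block, and a TPM of 5 for shares. The genes named are the 9, the 2 genes most like each tested one, and genes of the fixed lists past the threshold. 1 gene of the list of FOXO regulators is not reported here and was left out of its counts. The 9 genes and all lists were chosen with earlier results of these data known.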

Additional observations from a re-analysis of the deposited data

Results flagged for a closer look

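Cdkn1b, which encodes the cell cycle inhibitor p27, was lower with LY than with DMSO on all 3 dates at 16 hours and higher on all 3 dates at 24 hours. The difference between the LY effects, 24 hours minus 16 hours, was 0.69 on the log2(TPM + 1) scale (SE 0.57, 95% interval -0.50 to 1.89). The interaction in limma had p = 0.240 and an adjusted p of 1, so the test did not separate the effects. At 16 hours, differences on the first and second dates were -0.02 and -0.0011, and the third, -1.10, came from the LY experiment of 6 cells in which no cell had a TPM of 1 or more for the gene. Without that experiment the difference between the effects was 0.46.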

How the results depend on the processing

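Over 375 values of the 5 tested genes under settings other than leaving out 1 experiment, 331 kept their direction and side of the threshold, 44 turned sign and 0 became a call. The 331 include the fits with no filter and with the date as a replicate block. Those fits leave each difference unchanged by construction, so their sign could not turn. Of 230 values with 1 experiment left out, 198 were kept, 31 turned sign and 1 became a call. At a TPM of 5 in place of 1, 35 of the 63 shares of detecting cells moved by more than their counting error. The depth of each cell is unknown, so no limit from counting could be given for a level. Quantile normalization moved the median of all genes from -0.33 to 0.01 at 16 hours and from -0.20 to 0.03 at 24 hours.

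With the date as a replicate block, 0 genes passed in either LY comparison or in the interaction, and none of the 5 tested genes changed side.

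As reported, the calls were 0 for LY at 16 hours, 0 for LY at 24 hours, 0 for the interaction, 6 for 16h DMSO against E3.25, 0 for 24h DMSO against E3.75, 0 for E3.75 against E3.25, 165 for E4.0 against E3.75 and 195 for E4.0 against E3.25. With no filter on low values, the calls over all genes were 1 for LY at 16 hours, 90 for E3.75 against E3.25, 361 for E4.0 against E3.25, 81 for 16h DMSO against E3.25 and 17 for 24h DMSO against E3.75. With the log2 of the mean TPM plus 1, the turned values were Sesn3 -0.085 for LY at 24 hours, Sesn1 -0.22 for E3.75 against E3.25, Foxo3 -0.44 for E4.0 against E3.75, Sesn1 -0.47 for E4.0 against E3.25, Foxo1 -0.16 for 16h DMSO against E3.25. The calls over all genes were 1 for LY at 16 hours, 1 for E3.75 against E3.25, 70 for E4.0 against E3.75, 129 for E4.0 against E3.25 and 1 for 24h DMSO against E3.75. With weights by cells, the turned values were Sesn3 0.0057 for LY at 16 hours, Foxo3 -0.29 and Sesn1 -0.26 for the interaction, Foxo3 -0.22 for E4.0 against E3.75, Sesn1 -0.0043 for 24h DMSO against E3.75. The calls over all genes were 1 for LY at 16 hours and 30 for 16h DMSO against E3.25. In run 1 alone, the turned values were Foxo1 -0.89 and Sesn3 -0.0033 for LY at 24 hours, Foxo1 -0.62 for the interaction, Foxo3 0.35 and Sesn3 -0.058 for E3.75 against E3.25, Sesn1 0.62 for E4.0 against E3.75, Foxo3 0.59 for E4.0 against E3.25, Sesn1 -0.026 for 24h DMSO against E3.75. The calls over all genes were 1 for LY at 16 hours, 13 for E4.0 against E3.75, 16 for E4.0 against E3.25 and 0 for 16h DMSO against E3.25. With quantile normalization, the turned values were Foxo1 0.095 for LY at 16 hours, Foxo3 -0.10 for the interaction, Foxo3 -0.27 for E4.0 against E3.75, Foxo1 -0.10 for 16h DMSO against E3.25, Sesn3 -0.011 for 24h DMSO against E3.75. The calls over all genes were 105 for E4.0 against E3.75 and 10 for 16h DMSO against E3.25. In run 2 alone, the turned values were Foxo3 -0.58 and Sesn3 -0.19 for LY at 24 hours, Foxo3 -1.05 for the interaction, Sesn1 -0.19 for E3.75 against E3.25, Foxo1 -0.17, Foxo3 -0.23 and Sesn3 -0.24 for E4.0 against E3.75, Foxo1 -0.56 and Sesn1 -1.05 for E4.0 against E3.25, Foxo3 1.28 for 24h DMSO against E3.75. The calls over all genes were 384 for E4.0 against E3.25, 24 for 16h DMSO against E3.25 and 1 for 24h DMSO against E3.75. With genes detected as a covariate, the turned values were Foxo1 0.11, Sesn1 0.087 and Sesn3 0.0702 for LY at 16 hours, Sesn1 0.15 for LY at 24 hours, Foxo3 -0.048 for the interaction, Foxo3 -0.16 and Sesn3 -0.054 for E4.0 against E3.75, Sesn1 -0.45 for E4.0 against E3.25, Foxo1 -0.18 and Sesn3 -0.0056 for 16h DMSO against E3.25. The calls over all genes were 1 for 16h DMSO against E3.25. With a pseudocount of 0.1, the turned values were Sesn1 0.01 for E4.0 against E3.75. Leaving out 1 experiment at a time, the calls ranged from 0 to 2 for LY at 16 hours, 0 to 9 for E3.75 against E3.25, 51 to 278 for E4.0 against E3.75, 70 to 304 for E4.0 against E3.25, 0 to 52 for 16h DMSO against E3.25 and 0 to 5 for 24h DMSO against E3.75. The ranges of values that turned or became a call were Foxo1 -0.41 to 0.32 and Foxo3 -0.20 to 1.07 for LY at 16 hours. For LY at 24 hours they were Foxo3 -0.0079 to 0.59 and Sesn3 -0.088 to 0.18. For the interaction they were Foxo3 -0.72 to 0.55 and Sesn1 -0.22 to 0.79. For E3.75 against E3.25 they were Cdkn1b -0.0075 to 1.67 and Sesn1 -0.47 to 0.87. For E4.0 against E3.75 they were Foxo3 -1.33 to 1.90, Cdkn1b -2.38 to -0.71 and Sesn1 -0.73 to 0.61. For E4.0 against E3.25 they were Foxo1 -0.0088 to 0.93, Foxo3 -2.23 to 1.00 and Sesn1 -0.48 to 0.76. For 16h DMSO against E3.25 they were Foxo1 -0.12 to 0.45 and Cdkn1b -0.30 to 0.028. For 24h DMSO against E3.75 they were Foxo3 -0.37 to 0.085, Sesn1 -0.50 to 0.84 and Sesn3 -0.071 to 0.20. The call was that of Cdkn1b without the first E3.75 experiment. The causes were not tested.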
